A study of Mus musculus with 4 samples.

Results

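The Hox cluster genes encode homeodomain transcription factors, and their messages were measured here in infarcted left ventricles of KDM5B-knockout (KDM5B-KO) and wild-type (WT) mice. Members were the array probes, controls left out, whose gene name was Hoxa, Hoxb, Hoxc or Hoxd followed by a number. This rule gave 51 probes for 38 Hox genes among the 41174 probes and 27376 gene names of the array. The rule names genes by symbol and uses no signal value, although earlier results of these data were known when it was set. All mice were described as males of 8 to 10 weeks, had the left anterior descending coronary artery ligated to produce myocardial infarction (MI), and gave left ventricular RNA at 7 days. The KO mice carried a CRISPR/Cas9 deletion in Kdm5b that removed sequence for the JmjC domain and shifted the reading frame in the whole animal. WT animals lacked the deletion (the study's methods name C57BL/6 for its wild-type mice), and no uninfarcted group was analysed here. Each group had 2 one-colour arrays, numbered 2 and 3 (WT 2, WT 3, KO 2 and KO 3), and the labels do not say whether an array stands for 1 mouse or whether equal numbers mark littermates. A p-value therefore compares the group difference with the spread between 2 samples per group, which limma moderates toward that of all tested probes. The comparison asked which Hox genes are detected in the infarcted ventricle and whether they rise when an H3K4 demethylase is lost.

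Hox genes lie in clusters in which the order along the chromosome follows the order of expression along the embryonic body axis, with low paralog numbers anterior and high numbers posterior. In the embryo, retinoic acid activates the anterior genes first, Trithorax group complexes such as the one built around Kmt2a keep active genes marked by H3K4 methylation, and Polycomb group complexes keep the others silent. Anterior Hox genes, Hoxa3 among them, take part in the development of the second heart field, the outflow tract and the pharyngeal arch arteries. KDM5B removes methyl groups from H3K4me3 and H3K4me2, the marks found at the start sites of active genes.

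The 60-base probes that measured the Hox genes discussed most are identified here by their first 30 bases, 5′ to 3′, with the coordinates of the whole probe on mm9, the build on which the array grid was annotated. They are shown because a gene's value below is the brightness of these spots and of no other part of the transcript. In the first 2 lines, both probes carry the name Hoxb2, but the coordinates of the first run on the minus strand, against the plus strand of the other Hoxb probes. Coordinate order matched the strand of the gene for 99.3% of the 24764 probes that could be compared. That probe was therefore read as lying on the strand opposite to Hoxb2 and is given apart from the gene in what follows. Whether its transcript overlaps Hoxb2 was not checked.
Hoxb2, opposite strand (chr11:96211860-96211919, minus strand): gtaatgtattctatggtgaggcacctatga
Hoxb2 (chr11:96215122-96215181, plus strand): tggtaaaactccttccaacgaaatctcagg
Hoxd12 (chr2:74513174-74513233, plus strand): tatgtgggctcgcttctgaatttacagtca
Hoxd8 (chr2:74545021-74545080, plus strand): tgcgctttgaaagggatttctgtgttttta
Hoxa6 (chr6:52158194-52158253, minus strand): aggaaggcaccgaccggaagtacacaagcc
Hoxb4 (chr11:96181521-96181580, plus strand): atcggcgcatgaagtggaaaaaagaccaca
Hoxa4 (chr6:52139796-52139855, minus strand): ttcctctccttgcatttatttaagatactg
Hoxb6 (chr11:96160281-96160340, plus strand): ggtgctatttgacaattcctgcctctgcca
Hoxa5 (chr6:52152049-52152108, minus strand): gtgtaattaatgctgttgtagaggtgactt
Hoxb5 (chr11:96167130-96167189, plus strand): taggccccacaaggcctagtctggaagcgt

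Hox paralogs resemble each other in the homeobox, so each probe was set against the probes of all other Hox genes. The longest run of bases that a Hox probe shared with a probe of another Hox gene, on either strand, had a median of 9 bases. The longest such run, 22 bases, was shared by Hoxa9 and the brighter Hoxb3 probe, and values of these 2 genes are uncertain where such a run suffices for hybridization. Only probes were compared with each other, and the transcripts of the other Hox genes were not searched. Short runs between probes therefore do not exclude that a probe, of Hoxb4 or any other Hox gene, also binds the transcript of a paralog. The median GC content was 41.7% over all Hox probes and also over the 25 Hox probes that were well above background on no array.

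Signals are given as log2 of the scanner's processed signal minus the 75th percentile of that array, so that 0 is the array's upper quartile and each unit is a doubling. The scale compares arrays for 1 probe and does not rank genes against each other. A spot counted as detected where the scanner software marked it well above background. The arrays had 68.2% to 72.0% of their probes well above background, no saturated spot, and correlations between 0.919 and 0.986 over the tested probes. The lowest correlation was between KO 2 and KO 3. KO 2 also stood apart in its cell markers. The mean level of the 3 atrial markers was -2.85, -1.95 and -0.96 on WT 2, WT 3 and KO 3 and 5.93 on KO 2, where Sln reached 5.95, and the 2 tested adipocyte markers averaged 4.92 on KO 2 against 0.22 to 1.21 on the others. All 8 cardiomyocyte, 7 fibroblast and 5 macrophage markers were detected on every array. Xist, which is made in female cells, was at 4.36 on WT 2 and 4.0 on KO 2, against -8.01 and -7.78 on WT 3 and KO 3, and the Y-linked gene Ddx3y was well above background on WT 3 and KO 3 only, so both number 2 arrays went against the label male. For these reasons each Hox difference is also given within number 3 (KO 3 minus WT 3), which leaves out both number 2 arrays, and within number 2 (KO 2 minus WT 2).

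**Figure D1:**
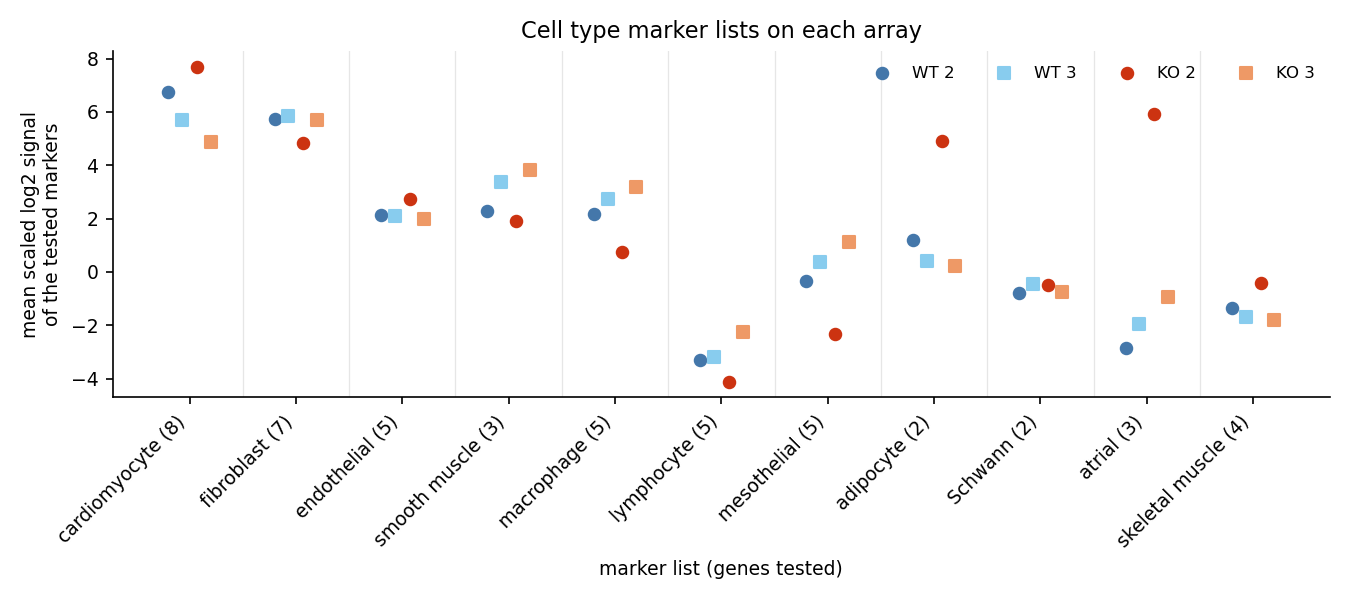
Mean scaled log2 signal (y axis) of each cell type marker list (x axis, number of tested genes in brackets) on the arrays WT 2, WT 3, KO 2 and KO 3, 1 point per array. KO 2 sits at 5.93 for the atrial list, where the other arrays lie at or below -0.96, and it has the lowest fibroblast, macrophage and mesothelial means.

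The targeted gene was read first. The brighter Kdm5b probe measured -0.87, -1.81, -2.40 and -2.26 on WT 2, WT 3, KO 2 and KO 3, a difference of -0.996 (SE 0.40, n = 2 per group), and the dimmer probe differed by -1.19 (SE 0.45, n = 2 per group). At the brighter probe the difference was -1.53 within number 2 and -0.46 within number 3, and it was -0.53 without WT 2 and -1.46 without WT 3. Each KO array was below each WT array at both probes, and neither probe passed the test (adjusted p = 1.0, limma). Where the deleted bases lie relative to these probes was not given in the sources used here, so the probes check the labels only in part.

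A gene counted as detected on an array where any of its probes was well above background. Of the 38 Hox genes, 15 were detected on all 4 arrays, 22 on at least 1 array and 16 on none. Of those on all 4, Hoxa3, Hoxa4 and Hoxd9 each had another probe for the same transcript that was well above background on no array. By probe, 18 of 51 Hox probes (35.3%) were well above background on every array, against 64.4% of all probes. The detected genes were mostly those with low paralog numbers. Among the anterior genes (paralogs 1 to 4), 8 of 12 were detected on all 4 arrays, including Hoxa3, Hoxa4, Hoxb2, Hoxb3, Hoxb4, Hoxc4 and Hoxd4. Among the central genes (paralogs 5 to 8), 5 of 11 were, namely Hoxa6, Hoxa7, Hoxb6, Hoxb7 and Hoxd8. Among the posterior genes (paralogs 9 to 13), Hoxa9 and Hoxd9 were the 2 of 15. By cluster, the counts were 6 of 11 Hoxa, 5 of 10 Hoxb, 1 of 8 Hoxc and 3 of 9 Hoxd genes. As the RNA came from whole ventricle, fewer cells of a type and less RNA per cell cannot be told apart in any of these signals.

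**Figure D2:**
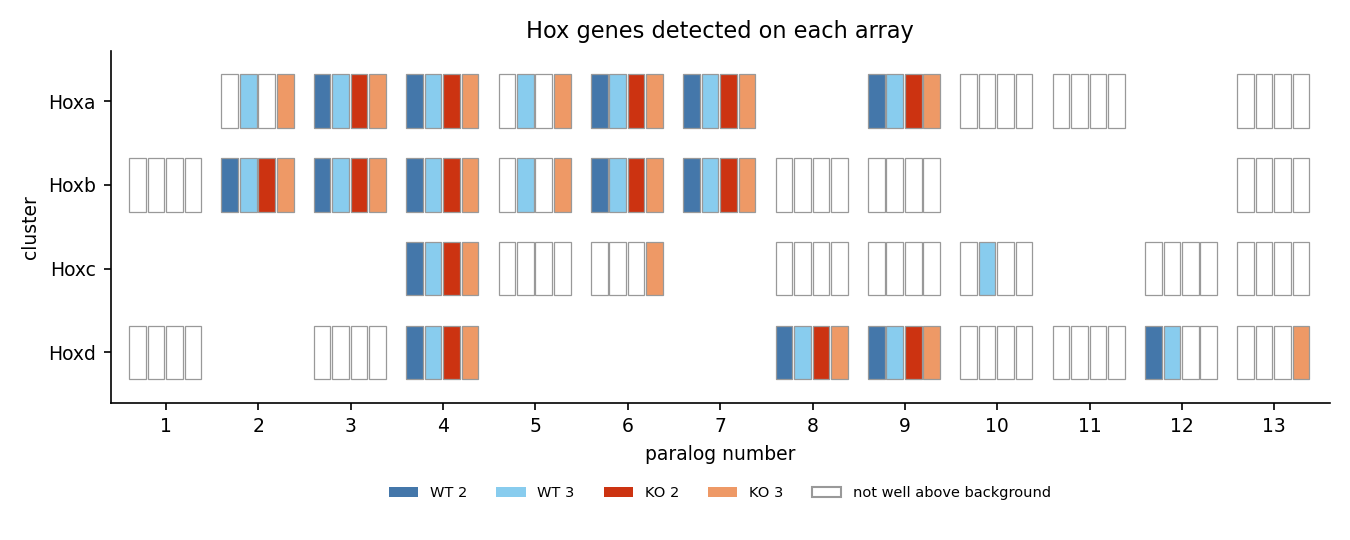
Hox genes by cluster (y axis) and paralog number (x axis). Each gene has 4 boxes, for WT 2, WT 3, KO 2 and KO 3 from left to right, filled where at least 1 of its probes was well above background; genes not named in the text have no boxes. Filled boxes are concentrated at paralogs 1 to 9, and 16 genes have no filled box.

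The genes on no array were Hoxb1, Hoxd1, Hoxd3, Hoxc5, Hoxb8, Hoxc8, Hoxb9, Hoxc9, Hoxa10, Hoxd10, Hoxa11, Hoxd11, Hoxc12, Hoxa13, Hoxb13 and Hoxc13. They include Hoxb1, which acts in the hindbrain and second heart field, and most of the genes that pattern the limb ends and the hind part of the trunk. A spot below background sets only an upper bound on the message, and the dimmest spots marked well above background lay at -5.90 to -5.41, depending on the array. Hoxc11 had no member probe and was not analysed here.

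The remaining 7 genes were detected on some arrays. Hoxd12, which acts in the digits, was detected on WT 2 and WT 3 and on neither KO array. Hoxa2, a hindbrain and pharyngeal arch gene, Hoxa5, needed for the respiratory tract, and Hoxb5 were detected on WT 3 and KO 3 and on neither number 2 array. Hoxc6 and Hoxd13 were detected on KO 3 alone, and Hoxc10 on WT 3 alone. Detection in WT alone, on each of its arrays, applied to 1 of 51 Hox probes and 0.347% of all probes, and detection in KO alone to 0 of 51 Hox probes and 0.175% of all probes. Being detected on both number 3 arrays and neither number 2 array applied to 3 of 51 Hox probes (5.88%) and to 1.60% of all probes. The arrays detected 16 (WT 2), 20 (WT 3), 15 (KO 2) and 20 (KO 3) Hox genes, so the number 3 arrays detected more Hox genes than the number 2 arrays in both genotypes. Of all probes, 69.0% (WT 2), 72.0% (WT 3), 68.2% (KO 2) and 70.7% (KO 3) were well above background. The number 3 arrays were thus the higher of each genotype over all probes as well.

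No general rise of Hox messages was measured in KO ventricles. A probe was tested if both arrays of a group were well above background, which left 19 Hox probes for 16 genes, Hoxd12 having passed only through WT. No Hox probe passed the adjusted p of 0.05 with a change over 2-fold (limma, Benjamini-Hochberg over 28304 probes), and the share called among all tested probes was 0.00% as well, with a lowest adjusted p of 1.0. At an unadjusted p under 0.05, 1 of 19 Hox probes passed, where 1.45% of all tested probes did. That probe, of Hoxd12, entered the test through the group in which it was higher, and among the 18 Hox probes detected on all arrays the count was 0. No Hox probe was more than 2-fold higher in KO, where 1.0% of all tested probes were, and 2 Hox probes, for Hoxd8 and Hoxd12, were more than 2-fold lower, where 2.35% of all tested probes were. Without Hoxd12, for the same reason, 1 was. Of the 19 Hox probes, 9 were higher in KO on average (47.4%), beside 52.3% of all tested probes. With 2 arrays a group the smallest two-sided p of an exact permutation test is 0.333, so that test was not used.

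With 1 probe per gene (the tested probe with the highest mean level), 8 of the 16 Hox genes were higher in KO and 8 were lower. The median difference was 0.01 on the log2 scale, with a range from -1.46 to 0.55, and the median over all tested probes was 0.02. Over the 15 genes detected on all arrays it was 0.04. Within number 2 the median Hox difference was 0.08 and within number 3 it was 0.11, beside 0.01 over all tested probes at both numbers. The sign was shared by both numbers in 8 genes, with 5 higher in KO at both (including Hoxa3, Hoxa4, Hoxb6 and Hoxc4) and 3 lower at both (Hoxa6, Hoxd8 and Hoxd12). It differed between the numbers in the other 8. By position, the median was 0.13 for the 8 anterior genes, -0.11 for the 5 central genes and -0.05 for the 3 posterior genes. By cluster, it was 0.09 for the 6 Hoxa genes, 0.04 for the 5 Hoxb genes, 0.40 for Hoxc4 and -0.56 for the 4 Hoxd genes. The Hoxd and posterior medians include Hoxd12, which was tested only through WT, where it was higher. The other Hoxd genes differed by -0.05 (Hoxd4), -1.07 (Hoxd8) and 0.09 (Hoxd9). The other posterior genes differed by -0.05 (Hoxa9) and 0.09 (Hoxd9). The Hoxd median is therefore not read as a fall of that cluster. The median over the Hox genes was -0.25 without KO 3 and -0.20 without WT 2. These medians are descriptions, since genes are not replicates.

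Single pairs of arrays gave larger differences in both directions. Within number 2, 11 of 19 Hox probes were higher in KO, beside 51.1% of all tested probes. Over 2-fold, the dimmer Hoxb6 probe was higher (5.26% of the Hox probes, 6.19% of all tested probes) and 5 were lower (26.3%, against 8.84% of all tested probes), those of Hoxb2, Hoxb4, Hoxd8 and Hoxd12 and the dimmer Hoxb3 probe. Within number 3, 10 of 19 were higher in KO, beside 52.0% of all tested probes. There the dimmer Hoxb3 probe was over 2-fold higher, where 2.23% of all tested probes were, and the probes of Hoxa6 and Hoxd12 were over 2-fold lower, where 1.78% were. Hoxd12 alone was over 2-fold lower at both numbers, but neither of its KO spots was detected and it was tested only through WT. The counts of lower probes at both numbers include it, and its sharing of direction between the numbers is not read as support. No Hox probe was over 2-fold higher at both numbers. A difference between 2 arrays has no replicate check.

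**Figure D3:**
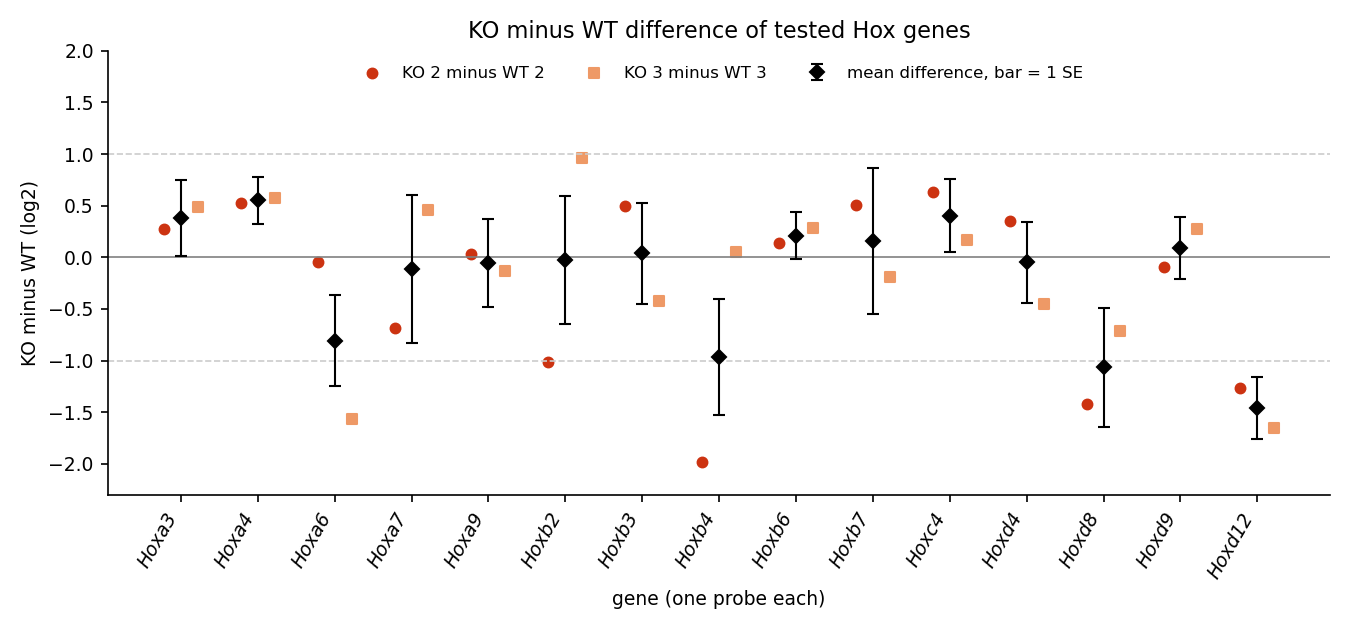
KO minus WT difference in log2 signal (y axis) for the tested Hox genes named in the text (x axis). Diamonds are the mean difference with 1 SE (limma, n = 2 per group), circles KO 2 minus WT 2, squares KO 3 minus WT 3, and dashed lines a 2-fold change. The means run from -1.46 for Hoxd12 to 0.55 for Hoxa4, and circle and square lie on opposite sides of 0 for 8 genes.

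Hoxd12, which lies towards the posterior end of the Hoxd cluster, had the largest measured difference, but against KO spots that were not detected. Its levels were -4.33, -4.52, -5.59 and -6.17 on WT 2, WT 3, KO 2 and KO 3. The KO arrays were the lower pair, and only the WT arrays were well above background. The measured means were -4.43 in WT and -5.88 in KO, a difference of -1.46 (adjusted p = 1.0, limma) that cannot be read as an exact size, since the probe passed the filter on dim signals only through WT. With the KO spots set no lower than the dimmest detected signal of their array, KO was at least 2.30-fold lower on this scale. The unscaled spots were faint, with mean brightnesses of 85.8, 84.2, 58.2 and 57.7 over local backgrounds of 35.0, 39.0, 41.5 and 36.0. With a different background correction (normexp with an offset of 50), the levels were -3.21, -3.43, -3.30 and -3.21 and the difference was 0.07, beside a median of 0.13 over all tested probes on that scale, so the direction for Hoxd12 rested on how the background was removed.

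Hoxd8, a central gene of the same cluster, measured -3.41, -2.78, -4.82 and -3.49 and was detected on all arrays. Both KO arrays were below both WT arrays, with the lowest value on KO 2. The difference was -1.07 (SE 0.57, adjusted p = 1.0, limma), -1.42 within number 2 and -0.71 within number 3, so the fold change over 2 was met at number 2 and not at number 3. It was -0.40 without KO 2 and -1.73 without KO 3, and it was -0.17 with the normexp background correction. Hoxa6, a thoracic patterning gene, measured -3.50, -2.77, -3.54 and -4.33. KO 2 was level with WT 2, and the difference came from number 3, where it was -1.56, against -0.05 within number 2. Its mean difference was -0.81 (SE 0.44, adjusted p = 1.0, limma), and it ran from -0.41 without KO 3 to -1.20 without KO 2, with -0.44 without WT 3. With normexp the Hoxa6 difference was -0.13. Both KO arrays were thus below both WT arrays for 3 of 19 Hox probes (15.8%), where they were for 10.9% of all tested probes. That count includes Hoxd12, which entered the test only through WT, the group in which it was higher. Without Hoxd12 only the probes of Hoxa6 and Hoxd8 remain, so the share is not read as a Hox result. The fibroblast markers had mean levels of 5.73, 5.84, 4.82 and 5.68 on WT 2, WT 3, KO 2 and KO 3. None of the 7 was higher in KO on average, 3 had both KO arrays below both WT arrays, and their median difference was -0.52, with -0.90 within number 2 and -0.07 within number 3. All 7 were detected on every array, and their part in the lower Hox values was not tested.

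Hoxb4, which is known for its part in the expansion of blood stem cells, measured -2.34, -3.41, -4.32 and -3.36. The groups overlapped, with WT 2 high and KO 2 low about the number 3 arrays. The mean difference of -0.97 (SE 0.56, adjusted p = 1.0, limma) was made of -1.98 within number 2 and 0.05 within number 3. It was -0.43 without WT 2, -0.49 without KO 2 and -1.51 without WT 3, and it was -0.31 with normexp.

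Hoxa4, a gene of the cervical vertebrae, had the largest positive difference. It measured -4.82, -4.66, -4.30 and -4.09 at its tested probe, with both KO arrays above both WT arrays. The other Hoxa4 probe, for the same transcript, was well above background on no array. The difference at the tested probe was 0.55 (SE 0.22, adjusted p = 1.0, limma, 95% interval -0.09 to 1.19). It was 0.53 within number 2 and 0.57 within number 3, so both numbers gave nearly the same value. Hoxb6, the other gene with KO above WT throughout, measured -0.85, -1.11, -0.71 and -0.83 at its brighter probe, a difference of 0.21 (SE 0.23, 95% interval -0.43 to 0.85), with 0.14 and 0.28 within numbers 2 and 3. Its second probe gave 0.32 (SE 0.81), with 1.12 within number 2 and -0.48 within number 3. The 2 probes of this pattern were 10.5% of the 19 Hox probes, beside 13.1% of all tested probes.

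**Figure D4:**
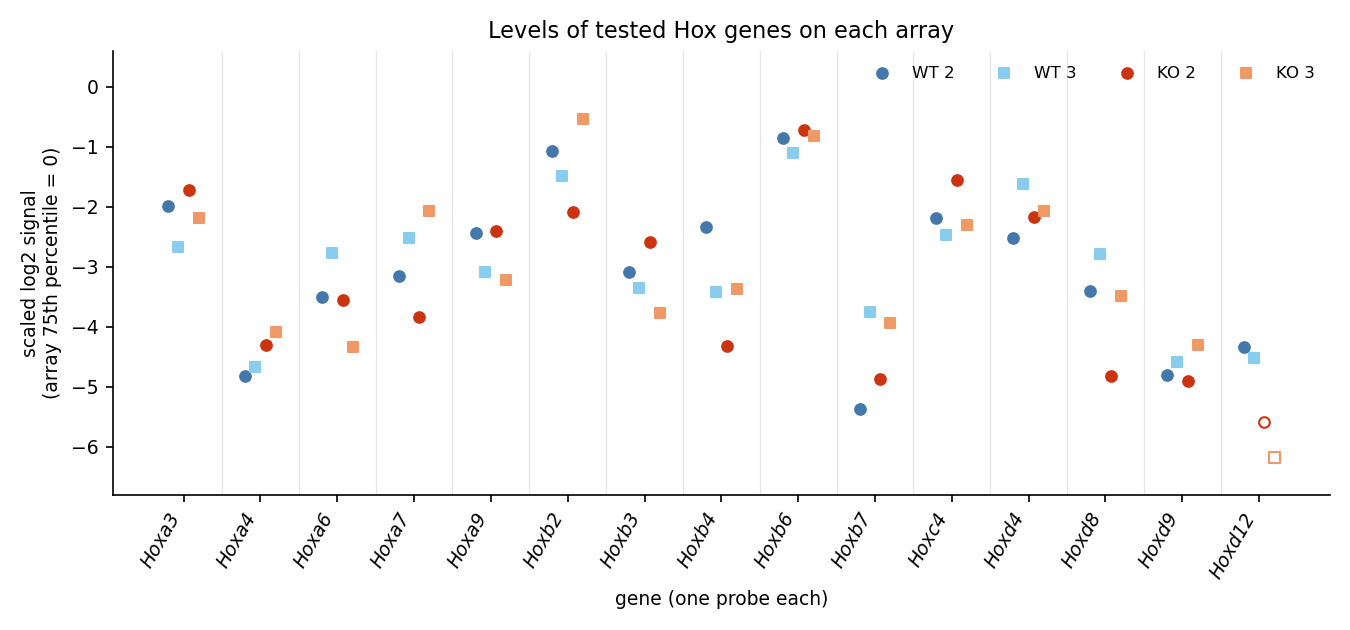
Scaled log2 signal (y axis, 0 is the array's 75th percentile) of the tested Hox genes named in the text (x axis) on each array. Filled symbols are well above background and open symbols are not. Both KO symbols lie below both WT symbols for Hoxa6, Hoxd8 and Hoxd12 and above them for Hoxa4 and Hoxb6.

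The other anterior genes had smaller mean differences, and several had opposite signs at the 2 numbers. Hoxa3, which acts in the third pharyngeal arch, differed by 0.38 (SE 0.37), 0.28 and 0.48 within the numbers, with 0.039 without WT 3 and 0.72 without WT 2. Hoxc4 differed by 0.40 (SE 0.35), 0.64 and 0.17 within the numbers, with 0.030 without KO 2 and 0.78 without KO 3. Hoxb2, which acts in the facial motor nucleus, had a difference of -0.03 (SE 0.62) that joined -1.01 within number 2 and 0.96 within number 3. The probe on the opposite strand of Hoxb2 differed by -0.19 (SE 0.29), 0.07 within number 2 and -0.45 within number 3. Hoxb3 differed by 0.04 (SE 0.49), with 0.50 and -0.42 within numbers 2 and 3. Its dimmer probe differed by -0.06 (SE 0.85), with -1.35 and 1.23, so the 2 probes of Hoxb3 ran in opposite directions at each number. Hoxd4 differed by -0.05 (SE 0.39), with 0.35 and -0.45. Adjusted p was 1.0 for each of these probes (limma).

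Among the central and posterior genes, Hoxa7 differed by -0.11 (SE 0.72), with -0.68 within number 2 and 0.46 within number 3. Hoxb7 differed by 0.16 (SE 0.71), with 0.50 and -0.19. Hoxa9, a gene of blood progenitors that is overexpressed in leukaemias with rearranged Kmt2a, differed by -0.05 (SE 0.43), with 0.03 within number 2 and -0.13 within number 3. Hoxd9 differed by 0.09 (SE 0.30), with -0.10 and 0.28. Adjusted p was 1.0 for each (limma).

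The precision of 2 arrays a group limits what these values exclude. The SE of a Hox probe ran from 0.22 to 0.85, and the 95% interval of the difference reached from 0.64 to 2.42 to either side. For 6 of the 18 Hox probes detected on all arrays the interval lay below a 2-fold rise, namely those of Hoxa6, Hoxb4, Hoxd8 and Hoxd9, the brighter Hoxb6 probe and the Hoxb2 opposite-strand probe. For the other 12, Hoxa3 and Hoxa4 among them, a 2-fold rise was within the interval.

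Hox signals were also compared between the array numbers. Of the 26 Hox probes well above background on at least 1 array, 10 (38.5%) had both number 3 arrays above both number 2 arrays, where 31.8% of all such probes did, and 5 (19.2%) had them below, where 28.2% did. The 10 included the probes of Hoxa2, Hoxa5, Hoxa7, Hoxb5, Hoxb7, Hoxc6, Hoxd4 and Hoxd9 and the opposite-strand Hoxb2 probe. Those of Hoxa2, Hoxa5, Hoxb5 and Hoxc6 were well above background on number 3 arrays only. They thus entered the set through the arrays on which they were higher, and the share is not read as a Hox result. Hoxa5 measured -6.07, -4.70, -7.63 and -3.85 on WT 2, WT 3, KO 2 and KO 3, and Hoxb5 measured -6.67, -4.18, -5.28 and -4.15. The 5 in the other direction were the probes of Hoxa3, Hoxa9 and Hoxc4, the brighter Hoxb3 probe and the dimmer Hoxb6 probe, with Hoxa9 at -2.44, -3.08, -2.41 and -3.22. The smooth muscle, macrophage, lymphocyte and mesothelial marker means were also higher on both number 3 arrays than on both number 2 arrays, and the cardiomyocyte, endothelial, adipocyte and skeletal muscle means were lower, the first at 5.70 and 4.88 against 6.74 and 7.70. Their part in the Hox pattern was not tested, and the number also separated the arrays with Xist from those without, so these cannot be told apart.

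Hox probes outside the test are accounted for by their values. Hoxc10, which acts in the lumbar cord and hindlimb, measured -5.70, -5.63, -7.67 and -7.99, and only WT 3 was well above background, so no fold is given. Hoxd13, the gene of the digit tips, measured -7.77, -8.06, -7.71 and -4.93 at the probe detected on KO 3. Hoxa2 measured -7.70, -5.57, -6.50 and -5.04, and Hoxc6 -6.78, -5.85, -7.62 and -5.01. A second Hoxa3 probe, for another transcript, was detected on WT 3 and KO 2, at -5.29 and -4.01, and on neither of the others. Values under the dimmest detected signal of an array have no order among themselves.

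The promoters of the genes that were lower on both KO arrays differed widely in CpG content, and they are shown because H3K4 methylation is found mostly at CpG-rich start sites. The 250 bases before the start are given 5′ to 3′ on the gene's strand, from RefSeq on GRCm38.p6, with each CpG in capitals. Coordinates on this build are not those of the probes.
Hoxd12 (chr2:74674763-74675012, plus strand): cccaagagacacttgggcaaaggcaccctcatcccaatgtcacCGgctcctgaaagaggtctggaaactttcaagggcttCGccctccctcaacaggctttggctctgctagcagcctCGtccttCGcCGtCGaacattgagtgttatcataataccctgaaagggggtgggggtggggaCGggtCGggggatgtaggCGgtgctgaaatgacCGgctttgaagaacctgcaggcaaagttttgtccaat
Hoxd8 (chr2:74704365-74704614, plus strand): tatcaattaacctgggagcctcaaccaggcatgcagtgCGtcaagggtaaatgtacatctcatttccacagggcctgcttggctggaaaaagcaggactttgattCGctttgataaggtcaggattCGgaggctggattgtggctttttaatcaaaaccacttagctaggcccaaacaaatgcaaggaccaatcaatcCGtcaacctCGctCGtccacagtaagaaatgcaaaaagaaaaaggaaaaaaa
Hoxa6 (chr6:52208673-52208922, minus strand): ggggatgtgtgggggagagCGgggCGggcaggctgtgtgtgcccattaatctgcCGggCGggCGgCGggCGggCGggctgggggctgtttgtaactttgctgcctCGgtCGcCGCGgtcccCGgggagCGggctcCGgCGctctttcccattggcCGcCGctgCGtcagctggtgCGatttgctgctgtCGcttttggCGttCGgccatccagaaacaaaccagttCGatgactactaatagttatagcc

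Hoxd12 had 10 CpGs in this window, Hoxd8 had 6 and Hoxa6 had 24, and the median of all 32851 RefSeq promoters was 6. The table held 24 promoters for 22 of the Hox genes, with a median of 12.5 CpGs. The 9 promoters of Hox genes detected on all arrays had a median of 8, and the 11 promoters of Hox genes detected on none had a median of 13. The letters TGATTNAT, a site that Hox proteins bind together with their cofactors, occurred on either strand in 2 of the 24 Hox promoters, those of Hoxa2 and Hoxd11, and in 2.82% of all promoters. CCAAT, searched on both strands, occurred in 14 of the 24 (58.3%) and in 33.8% of all promoters, including those of Hoxd12, Hoxd8 and Hoxa6. These matches describe the letters only.

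Genes that act with the Hox proteins or on the Hox clusters were read from lists of 70 genes, of which 63 were tested. None was called (limma), 28 of 63 were higher in KO, and the median difference was -0.04, beside 0.02 over all tested probes. Each KO array was above each WT array for 7 genes and below for 8, where 13.1% and 10.9% of all tested probes did. The Hox cofactors of the TALE homeodomain family were all detected, and none of the 9 had groups that did not overlap. Meis1 differed by -0.15 (SE 0.22) and Meis2 by 0.16 (SE 0.23). Among the 14 Trithorax and COMPASS genes, Kmt2a, an H3K4 methyltransferase that maintains Hox expression in the embryo, differed by -0.10 (SE 0.21). That list had 2 genes with both KO arrays higher and 2 with both lower. Among the 19 Polycomb genes, with 3 higher and 2 lower in this way, Ezh2, the H3K27 methyltransferase, differed by 0.25 (SE 0.27). Of the H3K4 demethylases 5 of 6 were tested, and Kdm5b itself was the only 1 whose groups did not overlap. Adjusted p was 1.0 for each (limma).

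In the retinoic acid list, 15 of 18 genes were tested, and 1 of them, Crabp2, which carries retinoic acid to its nuclear receptors, exceeded a 2-fold change. Crabp2 measured -2.71, -3.91, -7.46 and -5.39, and the KO arrays were the lower pair, KO 2 by most. Its measured difference was -3.12 (adjusted p = 1.0, limma), but neither KO spot was well above background and the probe passed the filter only through WT. With the KO spots set no lower than the dimmest detected signal, KO was at least 4.27-fold lower on this scale. The size depended on the background correction, since with normexp no gene of the lists, Crabp2 included, exceeded a 2-fold change. Aldh1a2, the enzyme that makes retinoic acid in the embryonic heart and epicardium, measured 1.18, 1.54, 1.59 and 2.09, with a difference of 0.48 (SE 0.30, adjusted p = 1.0, limma). Both KO arrays were above both WT arrays, although KO 2 exceeded WT 3 by little. The mesothelial markers had mean levels of -0.34, 0.37, -2.33 and 1.13 on WT 2, WT 3, KO 2 and KO 3, lowest on KO 2 as Crabp2 was, and their part was not tested. Cdx1, Cdx2 and Cdx4, which activate central and posterior Hox genes in the embryo, were detected on no array.

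The clusters hold other transcripts, and 18 probes of other names lay inside the span of the Hox probes or within 100 kb of it. None of the 8 inside was tested, and 5 of those outside were. Evx2, the gene next to Hoxd13, was detected on all arrays although Hoxd10 and Hoxd11 were not, and it differed by 0.19 (SE 0.26, adjusted p = 1.0, limma). Calcoco2, an autophagy receptor gene beside the Hoxb cluster, measured -4.55, -4.56, -3.86 and -3.87 at its first probe, a difference of 0.69 (SE 0.20, adjusted p = 1.0, limma). Its second probe measured -4.39, -4.53, -4.18 and -2.66, a difference of 1.05 (SE 0.59) that came mostly from KO 3. Both KO arrays were above both WT arrays at both Calcoco2 probes.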

How the data were processed

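RNA of infarcted left ventricles was hybridized to 4 one-colour Agilent 4x44K arrays (2 WT, 2 KDM5B-KO), all on 1 slide and scanned on 1 day. The deposited scanner files hold the intensity of each spot, which the authors obtained with Agilent Feature Extraction 10.7.3.1 (background subtracted and detrended within the array, no normalization between arrays), and mm9 coordinates, per the file headers. A second deposited table holds the authors' log2 values, normalized between arrays in GeneSpring (method not given in the sources used here) and used here as an alternative. Group and number came from the sample titles.

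Control spots and outlier spots (92 to 116 per array) were left out and spots of a probe were averaged. The log2 processed signal was shifted by each array's 75th percentile. A probe was tested if both arrays of a group were well above background, which kept 28304 probes; 12864 were too dim and 6 lacked a value. Differences were tested with lmFit and eBayes in limma 3.58.1 (R 4.3.3), with Benjamini-Hochberg adjustment over all tested probes, at the study's thresholds (adjusted p under 0.05, fold change over 2). The code was checked on simulated data. The number of arrays limits the precision.

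The Hox members, gene lists and comparisons were chosen with earlier results of these data known. Hox genes are named as detected, partly detected or not detected, and some results are not reported here. Values on each array are given for genes whose groups did not overlap and for the 5 with the largest differences, and further genes with such values were chosen after they were seen. From the lists, Meis1, Meis2, Kmt2a, Ezh2 and Aldh1a2 are named, and any gene past a 2-fold change. Alternatives were another background correction, other scalings, the authors' values, other filters, the number as a block, robust moderation with a trend, the methods' t-test and leaving out each array.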

Additional observations from a re-analysis of the deposited data

Results flagged for a closer look

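Xist, the transcript of the inactive X chromosome, was well above background on 2 arrays whose samples were labelled male, and it lies outside the Hox comparison. Its brightest probe reached a scaled log2 level of 4.36 in WT 2. In KO 2 the level was 4.0. The spots of WT 3 and KO 3, at -8.01 and -7.78, were not well above background. As both genotypes had 1 array of each kind, the Hox differences within number 2 and within number 3 were each taken between arrays alike in this respect. Groups of 2 arrays are too small to look for an outlying array in a group.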

How the results depend on the processing

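No alternative called a Hox probe at an adjusted p under 0.05 with a fold change over 2 in limma. Fitting the array number as a replicate block gave 2 of 19 Hox probes at an unadjusted p under 0.05 (limma), where 2.13% of all tested probes passed. The main fit gave 1 of 19, where 1.45% did. The numbers are shared labels only; over the 28304 tested probes the number 2 minus number 3 difference in KO correlated with that in WT (r = 0.569). The methods' t-test gave 1 of 19 at an unadjusted p under 0.05, where 3.11% of all tested probes passed, and 0 after adjustment. With normexp background correction, 0 Hox probes were more than 2-fold lower, and 0 list genes and 0 cluster neighbours exceeded a 2-fold change. At an unadjusted p under 0.05 (limma), 1 of 19 Hox probes passed, where 4.10% of all tested probes did, and it was not that of Hoxd12. The differences changed sign for Hoxa7 (0.15), Hoxa9 (0.16), Hoxb2 (0.050), Hoxd4 (0.075) and Hoxd12 (0.067, SE 0.17). Those of Hoxd8 (-0.17), Hoxa6 (-0.13) and Hoxb4 (-0.31) kept their sign but shrank. Hoxa4 (0.57), Hoxa3 (0.41), Hoxc4 (0.44) and Hoxb6 (0.21) stayed near their main values, and Hoxb3 (0.30), Hoxb7 (0.36) and Hoxd9 (0.39) rose. The median Hox difference moved from 0.01 to 0.19, and the median of all tested probes from 0.02 to 0.13. The higher share of probes past 2-fold moved from 29.8% of 949 to 39.7% of 209. Shifting by the median turned Hoxb2 to 0.0039, and a percentile over probes detected on all arrays gave 2 list genes past 2-fold. Without the filter on dim probes, 3 of 51 Hox probes had an unadjusted p under 0.05 (limma), where 1.76% of all probes did. By over 2-fold, 2 were higher and 4 lower, beside 2110 of 41168 probes in either direction. Only with probes detected on all arrays, 0 of 18 Hox probes were at that p, where 1.17% of all such probes were. Past 2-fold, 1 Hox probe was lower, beside 472 of 26503 probes in either direction, with 0 list genes. Averaging the probes of a gene turned Hoxb3 to -0.011.

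Leaving out each array in turn gave 0 to 5 Hox probes at an unadjusted p under 0.05, 0 to 1 higher and 2 to 4 lower by over 2-fold, a median Hox difference from -0.25 (without KO 3) to 0.086 (without KO 2), 2 to 8 list genes and 0 to 1 neighbours past 2-fold; without WT 2 the median was -0.20. In the limma fits without 1 array, the lone array of a group was assumed to vary like the pair. These ranges are for the fits without 1 array and do not cover normexp. Among the genes that kept their sign in them, Hoxd8 ran from -1.73 to -0.40, Hoxa6 from -1.20 to -0.41, Hoxb4 from -1.51 to -0.43 and Hoxd12 from -1.75 to -1.17. Hoxa3 ran from 0.039 to 0.72, Hoxc4 from 0.030 to 0.78, Hoxb6 from 0.082 to 0.34, Hoxa4 from 0.44 to 0.66 and Kdm5b from -1.46 to -0.53. Over these settings Hoxa7 ran from -1.0 to 0.78, Hoxa9 from -0.45 to 0.35, Hoxb2 from -0.80 to 0.75, Hoxb3 from -0.55 to 0.63, Hoxb7 from -0.65 to 0.96, Hoxd4 from -0.50 to 0.40 and Hoxd9 from -0.20 to 0.38. Within number 2 the sign changed for Hoxa9 (0.029), Hoxd4 (0.35) and Hoxd9 (-0.10). Within number 3 it changed for Hoxa7 (0.46), Hoxb2 (0.96), Hoxb3 (-0.42), Hoxb4 (0.048) and Hoxb7 (-0.19). Restricting the count to probes on the strand of their cluster, chosen after the data were seen, changed no count. The cause of these changes was not tested. A block for slide or scan was not run, since all arrays shared 1 slide and 1 scan day.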
